A study of Mus musculus with 3 samples.

Results

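Ependymal cells line the central canal of the spinal cord. The nuclei described here are those that carry the deposited cell type label Ependymal, 93 of the 14662 nuclei in the study, and they came from 11 of the 12 mice. The study applied single-nucleus RNA sequencing to lumbar spinal cord of mice aged 90 days. The SOD1G93A mice were carriers of the B6.Cg-Tg(SOD1*G93A)1Gur/J line, which has many copies of a mutant human SOD1 transgene under the human SOD1 promoter and is a model of familial amyotrophic lateral sclerosis, and the WT mice were their C57BL/6J littermates without the transgene. There were 3 female and 3 male mice of each genotype. Nuclei were tagged with hashtag antibodies, so that a droplet could be traced to its mouse, and 1 mouse of each sex and genotype went into each of the 3 pools A, B and C. The comparison of the genotypes asks which transcripts of a cell type differ in SOD1G93A mice.

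As background, ependymal cells are glia whose surface toward the canal carries motile cilia, and the beating of these cilia moves cerebrospinal fluid. The core of a motile cilium is the axoneme, a cylinder of paired microtubules (doublets) around a central pair. Dynein arms on the doublets make the force, radial spokes and nexin links shape it into a beat, and intraflagellar transport carries parts in and out of the cilium. FOXJ1 and the RFX factors are the transcription factors best known for switching on ciliary genes, and in the spinal cord ependymal cells are also known as a source of cells with stem cell properties after injury.

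The 93 nuclei held 252050 unique molecular identifiers (UMIs, each counting 1 captured RNA molecule), 173717 in the 55 WT nuclei and 78333 in the 38 SOD1G93A nuclei. The WT female of pool A had 0 ependymal nuclei of 1036, which allows a share of up to 0.29% (3 counts). The SOD1G93A female of pool B had 1 nucleus, the SOD1G93A male of pool A had 3, and the other 9 mice had 5 to 21. These intervals and limits cover counting error only. Levels are given as UMIs of a gene per 10000 UMIs of the nuclei summed, which is the scale for comparing samples and cell types. Since intronic reads were counted, a long gene collects more UMIs, and an order of genes by UMIs or level is not an order of expression, for which UMIs per 10 kb of gene span are given.

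The label was set against its markers Dnah12, Cfap44 and Enkur, which encode an inner arm dynein heavy chain, a protein of the doublet tether and a protein inside the doublet. The study used marker genes to assign cell types, so this is no independent check. All 3 markers had a UMI in 52 nuclei, 2 of them in 30 nuclei, 1 in 8 nuclei and none in 3 nuclei. Each of the 93 nuclei had at least 11 UMIs of the axonemal genes listed below. Dnah12 was detected in 93.5% of ependymal nuclei (median 2110 UMIs per nucleus), in 16.6% of microglia nuclei (median 46927 UMIs), in 13.4% of motor neuron nuclei (median 53245 UMIs) and in at most 4.35% of the nuclei of any other type. After each nucleus was thinned to 1000 UMIs, which leaves out the nuclei with fewer (6 of the 93 ependymal, 229 of 1031 Schwann and meningeal, 23 of 8800 neuron and at most 8 of any other type), it was found in 83.7% of ependymal nuclei and in at most 0.625% of the nuclei of another type, the astrocytes. At the same thinning Cfap44 was found in 71.8% and Enkur in 36.8% of ependymal nuclei, and in the other types in at most 2.65% and 0.734%. A deposited label of each cluster from reference profiles was Ependymal for 90 of the 93 nuclei and aNSCs or NPCs for the others. Those others were 1 nucleus each of the SOD1G93A males of pools A and C, with none of the 3 markers, and 1 of the WT female of pool B, with 2. They stayed in the genotype comparison. In a deposited mapping to a published reference, 87 of the 93 nuclei were placed in a class of meningeal and Schwann cells, 3 among neurons, 1 among astrocytes and 2 were unlabelled. Of the Schwann cell markers, Pmp22 had 6 UMIs, a level of 0.238 per 10000 UMIs against 1.04 in Schwann and meningeal nuclei. Prx was at 0, but it was at only 0.0222 in Schwann and meningeal nuclei. A count of 0 allows up to 0.119, so the 0 of Prx cannot tell the types apart.

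Other cells around the canal were looked for with fixed lists. Of 5 genes of cerebrospinal fluid contacting neurons, the defining Pkd2l1 and Gata2 were at 0 and the other 3 had 5 UMIs together. Of 6 choroid plexus genes, Ttr, Kl and Otx2 were at 0 and the other 3 had 6 UMIs together, among them Folr1 and Clic6, which were highest in ependymal nuclei. Of 5 tanycyte genes, Rax and Gpr50 were at 0, and 41 of the 43 UMIs fell on Col23a1, at 0.54 of its level in fibroblasts. A count of 0 in 252050 UMIs allows a level of up to 0.119 per 10000. Cldn5 of endothelial cells was at 0, with 3 UMIs of Flt1 and 2 of Pdgfrb. Dcn and Col3a1 of fibroblasts were at 0, with 1 UMI of Pdgfra. Of the microglia markers Ptprc was at 0, Csf1r had 1 UMI and Cx3cr1 had 9, in 8.60% of the nuclei, at a level of 0.357, against 0.336 in microglia. The nuclei labelled microglia are a weak yardstick here. Their microglia markers summed to 0.746 per 10000 and their neuron markers to 4.85. Cx3cr1 lies opposite the ependymal gene Ttc21a described below. Oligodendrocyte transcripts were present, with 99 UMIs of the myelin gene Mbp, found in 47.3% of the ependymal nuclei, and 13 UMIs of Mog. The level of Mbp was 3.93 per 10000 in ependymal nuclei, 8.53 in astrocytes and 28.3 in oligodendrocytes. A UMI of a neuron marker (Grin1, Rbfox3 or Camk2a) was found in 18 nuclei. Of the barcodes in the study, 15 occurred in more than 1 pool, and 1 ependymal nucleus had such a barcode.

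Ependymal nuclei were shallower than astrocyte nuclei of the same mouse. Median UMIs per nucleus ranged from 1263 to 6431 over the 11 mice, with a median of 2289, against 3412 to 6418 in astrocytes. The difference was −1.22 ± 0.61 on the log2 scale (SD, n = 11 mice), 2.32-fold lower in ependymal nuclei, and it was seen in 10 of 11 mice (exact sign-flip permutation test, two-sided p = 0.00195). The mouse that went the other way was the SOD1G93A female of pool B, whose single nucleus had 6431 UMIs. The median mitochondrial share of UMIs per mouse, by contrast, was 3.55% to 7.32% in ependymal nuclei and 0.57% to 2.33% in astrocyte nuclei. It was higher in ependymal nuclei by 4.16 ± 1.07 percentage points (SD, n = 11 mice) and higher in 11 of 11 mice (exact two-sided p = 0.000977, the smallest that 2048 arrangements allow). The ranges of these medians did not overlap between ependymal and astrocyte nuclei, while single ependymal nuclei ran from 0.251% to 9.92%. Without the mice that had under 5 ependymal nuclei the differences were −1.32 and 3.96 points.

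**Figure D1:**
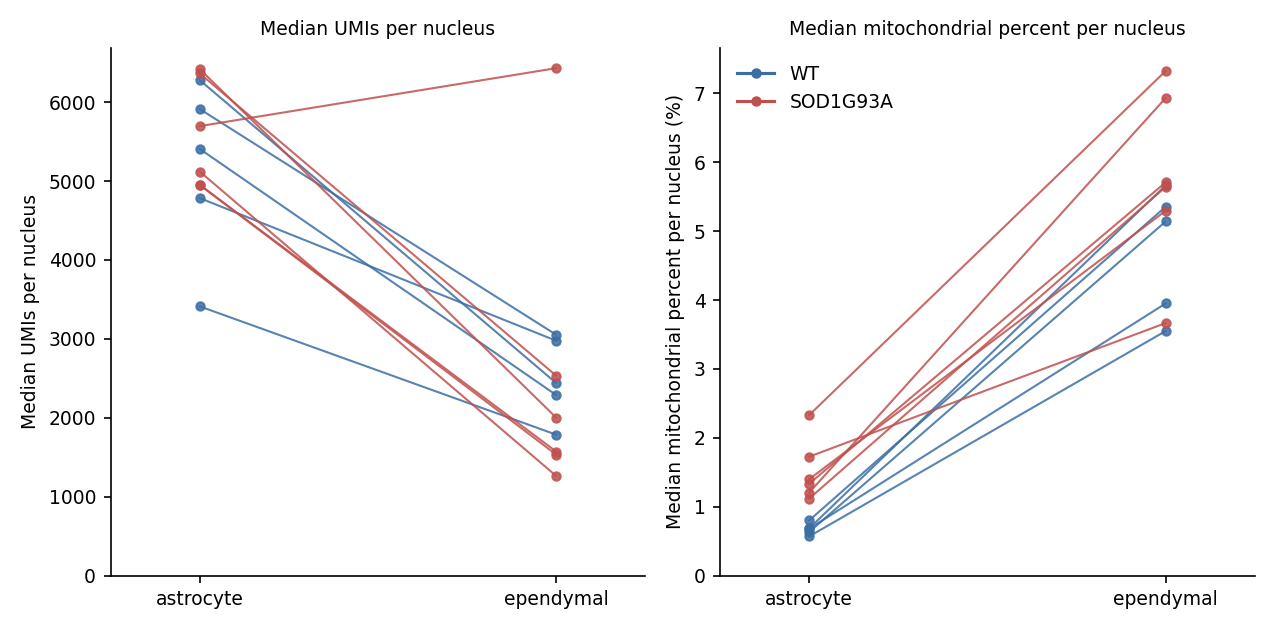
Median UMIs per nucleus (left, axis in UMIs) and median mitochondrial percent per nucleus (right, axis in percent) of astrocyte and ependymal nuclei. Each line joins the values of 1 mouse, blue for WT and red for SOD1G93A; depth falls along 10 of the 11 lines and the mitochondrial share rises along all 11.

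The gene groups that stood out were those of the axoneme. Specificity was expressed as the level in ependymal nuclei over the highest level in any of the other 9 cell types. It is a description with no test, because the cell types were clustered on these same transcripts. Of 31040 genes, 13694 had a UMI in an ependymal nucleus and 2248 passed a detection filter (a UMI in at least 20% of ependymal nuclei and in at least 6 mice). Of these, 725 were highest in ependymal nuclei and 236, or 10.5%, were 4-fold or more above every other type. The 236 genes took 9.61% of all ependymal UMIs. For 110 of them the ependymal level was above each other type in all 11 mice, and in pools A, B and C alone 216, 226 and 213 of them were at 4-fold or more. The 236 genes were chosen on the nuclei of these same mice and pools, so high counts are built in and are no replication. No such counts over the 2248 genes stand beside them.

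The axonemal lists held 95 measured genes, of which 89 had a UMI and 85 were highest in ependymal nuclei. No share over all measured genes stands beside the 85. Past the filter 61 of 61 were highest in ependymal nuclei, against 725 of the 2248 genes. Of the 61, 59 were at 4-fold or more, and the median ratio was 31.0, against 0.72 over all 2248 genes. Together the 95 genes made up 3.25% of ependymal UMIs and 0.0538% to 0.0815% of the UMIs of the other types. The filter favours genes that are high in ependymal nuclei, so the 34 axonemal genes below it are not covered by that median. All 5 structures were represented, and no structure had a median ratio below 23.

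**Figure D2:**
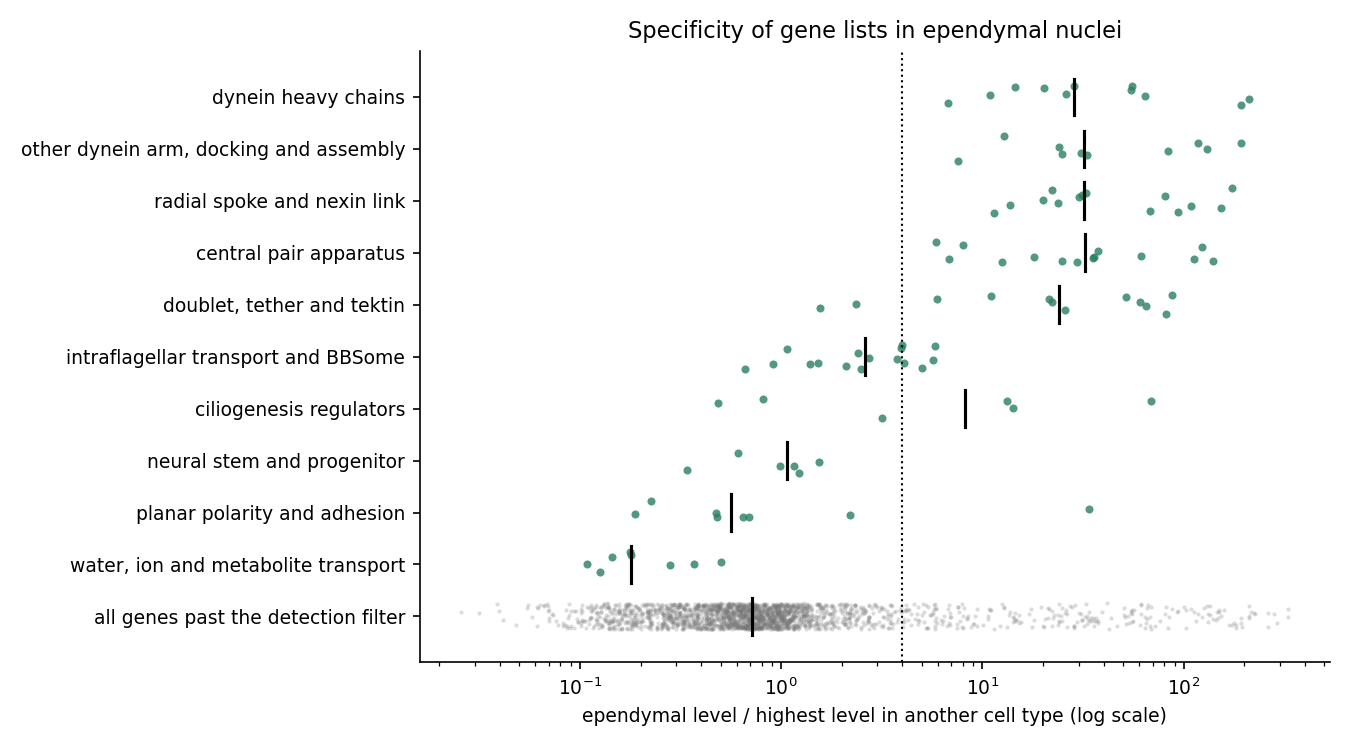
Ratio of the ependymal level to the highest level in another cell type (log axis) for each gene past the detection filter, by gene list. Green points are genes, black bars medians, grey points all 2248 genes, and the dotted line marks 4-fold; the 5 axonemal lists lie to the right of the line except for 2 genes, and 12 of the 16 transport genes lie to its left.

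Dynein heavy chains are the motors of the arms, and 11 of the 15 measured passed the filter, all at 4-fold or more. Dnah12 had 493 UMIs. Its level was 18.6 in the WT female of pool B, 21.3 in that of pool C, and 23.0, 16.0 and 19.7 in the male WT mice of pools A, B and C. In SOD1G93A mice it was 18.8, 46.6 and 16.1 in females and 32.3, 13.5 and 21.6 in males of pools A, B and C. The 2 highest values belonged to the 2 mice with under 5 nuclei, and the other 9 mice lay between 13.5 and 23.0. The next highest cell type, fibroblasts, had 0.0931, which gives a ratio of 210. The 46 fibroblast nuclei held 214721 UMIs, so this level rests on very few UMIs. Ratios over such low levels, here and below, are approximate, and so is their order. The outer arm chains Dnah11 (12.9, 192-fold), Dnah9 (11.7, 25.9-fold) and Dnah5 (6.59, 10.9-fold) and the inner arm chain Dnah6 (8.45, 64.1-fold) were also specific. Dnah7a, Dnah7b and Dnah7c were at 20.2-fold, 6.71-fold and 14.6-fold, and since these genes are near-identical copies their split of reads is uncertain. Per 10 kb of gene span Dnah12 had 24.8 UMIs, Dnah2 had 12.3, Dnah6 had 10.4 and Dnah11 had 10.2. Dnah17 was at 0, and Dnah8 and Dnah14 had 1 UMI each.

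Among the other parts of the dynein arms, the docking protein gene Armc4 (7.02 per 10000, 130-fold), the intermediate chain genes Wdr63 (4.40, 193-fold) and Wdr78 (5.16, 12.8-fold) and the light chain gene Dnal1 (3.89, 7.59-fold) were specific. All 10 genes of this list past the filter, of 19 measured, were at 4-fold or more. Dynein arms are put together in the cytoplasm before they enter the cilium, and of the genes for this step Dnaaf3 was at 83.6-fold and Lrrc6 at 31.0-fold. Radial spoke and nexin link genes numbered 14 of 23 past the filter, all specific, among them the spoke base gene Cfap61 (7.93, 68.0-fold) and Wdr66 (4.56, 32.7-fold). Drc7, Drc1 and Drc3 of the nexin link had ratios of 153, 23.7 and 20.1. Their levels in single mice were 0 to 3.55, 0 to 3.28 and 1.65 to 4.14.

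Of the central pair genes 14 of 16 passed the filter, with a summed level of 109 per 10000 over the list. Spag16 ranged from 6.25 to 62.2 over the mice with a median of 14.1, Spef2 from 2.08 to 26.4 with 10.7, and Cfap54 from 7.29 to 21.8 with 12.4. Hydin, a very large central pair gene whose loss causes hydrocephalus in mice, had a level of 8.25 and a ratio of 139. In the group of doublet, tether and tektin genes, Cfap44 (14.3, 25.6-fold) and Cfap43 (11.2, 87.7-fold), which work as a pair in the tether, were specific, as was Enkur (4.80, 51.5-fold). Per 10 kb of gene span the markers had 49.1 UMIs for Enkur, 41.1 for Cfap44 and 24.8 for Dnah12. Cfap20 and Efhc2 were the 2 axonemal genes past the filter below 4-fold, at 2.37 and 1.56, and Tekt2 was at 0.

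The share of axonemal UMIs varied between nuclei from 1.04% to 5.96%, with quartiles of 2.26% and 3.74%. Over the 93 nuclei it had a Spearman rho of 0.368 with UMIs per nucleus and of 0.0824 with the mitochondrial percent, a description in which nuclei of 1 mouse share a library. The nuclei had UMIs of 8 to 67 axonemal genes with a median of 36. By mouse the share was 2.39% to 5.96%, and the highest value came from the mouse with a single nucleus. Of the 14569 nuclei of other types, 4 reached the fifth percentile of ependymal nuclei, which was 1.36%.

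**Figure D3:**
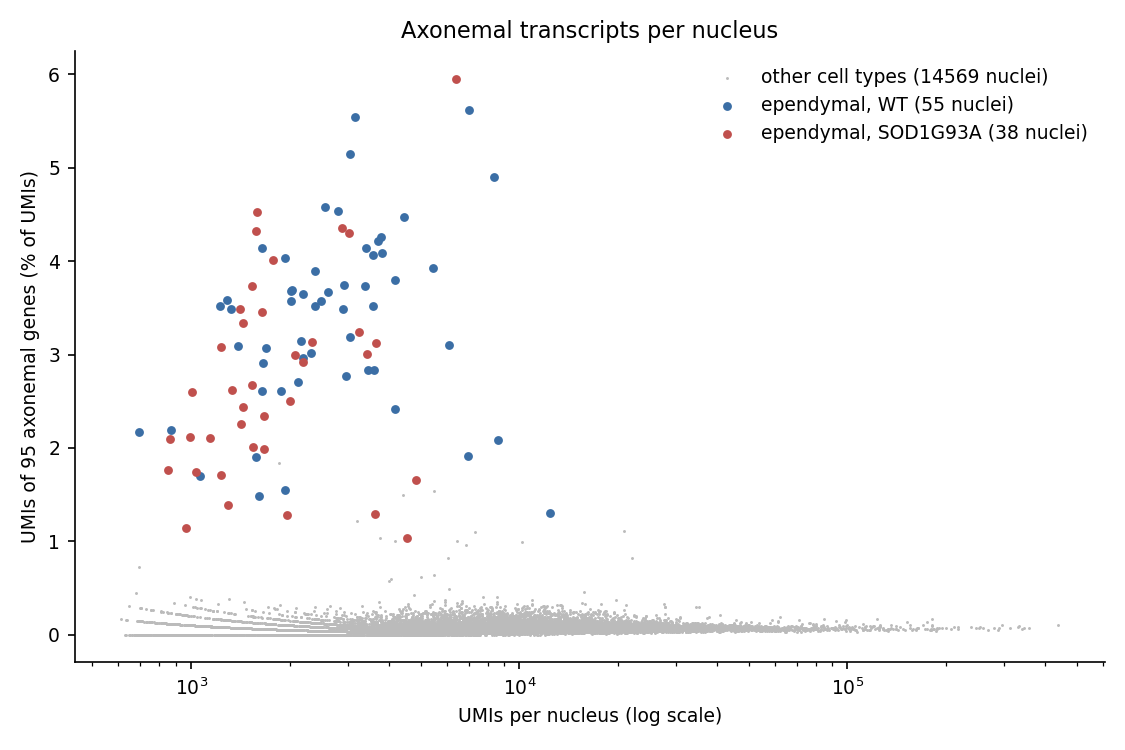
Share of UMIs on the 95 axonemal genes (percent) against UMIs per nucleus (log axis). Blue and red points are the 55 WT and 38 SOD1G93A ependymal nuclei and grey points are the 14569 nuclei of other types; every ependymal nucleus is above 1%, and 4 grey points reach 1.36%.

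The sequence before the start of 4 axonemal genes is shown, because the RFX factors bind a motif called the X-box and RFX genes were detected in these nuclei. Each is the 250 bases before the RefSeq start on the GRCm38.p6 build, read 5′ to 3′ on the strand of the gene, and capitals mark GTTGCC or its reverse complement GGCAAC, the letters of 1 arm of the X-box. Dnah12 lies on the plus strand at chr14:26691304-26691553, Cfap44 on the plus strand at chr16:44394549-44394798, Enkur on the minus strand at chr2:21205366-21205615 and Hydin on the plus strand at chr8:110266727-110266976.
Dnah12: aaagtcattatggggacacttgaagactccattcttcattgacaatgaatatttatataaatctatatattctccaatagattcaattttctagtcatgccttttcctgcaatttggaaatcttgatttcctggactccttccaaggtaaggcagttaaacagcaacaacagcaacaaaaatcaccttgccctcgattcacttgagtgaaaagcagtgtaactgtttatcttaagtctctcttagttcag
Cfap44: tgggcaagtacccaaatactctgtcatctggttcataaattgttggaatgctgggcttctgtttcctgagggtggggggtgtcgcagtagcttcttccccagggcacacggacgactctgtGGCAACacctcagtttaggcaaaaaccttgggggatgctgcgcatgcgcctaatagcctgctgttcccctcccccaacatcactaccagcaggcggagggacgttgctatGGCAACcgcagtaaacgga
Enkur: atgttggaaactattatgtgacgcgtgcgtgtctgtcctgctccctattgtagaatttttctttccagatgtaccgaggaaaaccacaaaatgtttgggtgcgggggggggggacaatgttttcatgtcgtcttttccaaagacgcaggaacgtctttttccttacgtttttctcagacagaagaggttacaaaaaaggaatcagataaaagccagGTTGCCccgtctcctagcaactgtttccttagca
Hydin: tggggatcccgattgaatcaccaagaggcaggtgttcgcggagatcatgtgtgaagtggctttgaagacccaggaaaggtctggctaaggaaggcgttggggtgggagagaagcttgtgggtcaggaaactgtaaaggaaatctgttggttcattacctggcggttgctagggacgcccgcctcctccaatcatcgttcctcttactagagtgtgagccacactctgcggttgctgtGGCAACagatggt

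Cfap44 held the letters at 129 and 19 bases before the start, Enkur at 34 and Hydin at 13, and the window of Dnah12 held none. The first 3 of these genes are the markers, and Hydin was picked in addition. The same windows of 1700012P22Rik, Fam216b and Ttc21a, genes with some of the highest ratios described below, were read but not printed. None of them held the letters before the start, and Ttc21a held them only after it. Over windows of 250 bases before to 50 after the start, GTTGCC on either strand was found in 36 of the 88 promoters of 78 axonemal genes (40.9%), in 16 of 37 promoters of transport genes (43.2%) and in 12.5% of all 32851 promoters. With 1 base more, GTTGCCA, which is contained in the first count, the shares were 21.6%, 24.3% and 4.38%. The forkhead letters GTAAACA, used for FOXJ1, were in 4 of the 88 axonemal promoters (4.55%) and in 3.65% of all promoters. Both arms of the X-box at a spacing of 3 bases, GTTGCNNNGGCAAC, a search chosen after the sequences had been seen, were in 49 of all promoters (0.149%) and in 2 of the 88, those of Cfap44 and Hydin. The pattern can be read in the 2 windows printed above, so these 2 matches came with the choice of the search. No other axonemal promoter held it, and the 2 of 88 cannot be set against 0.149%. A match describes letters and not binding. No share is given for the other specific genes, too few of which had a promoter sequence, so nothing here sets the axonemal genes apart from them.

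Genes of ciliary transport were less specific than those of the axoneme itself. Of 41 intraflagellar transport and BBSome genes measured, 16 passed the filter, 4 were at 4-fold or more, and the median ratio was 2.61. The retrograde motor gene Dync2h1 had a level of 4.84, against 1.77 in neurons, and Ift88, classically needed for cilia to form, had 2.78, against 0.737. The 4 specific members were Wdr35 (5.79-fold), Ift81 (5.65-fold), Ift122 (5.00-fold) and Bbs7 (4.06-fold). These genes serve both motile and primary cilia, and neurons and astrocytes bear primary cilia.

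Among 20 regulators of ciliogenesis, 6 passed the filter and 3 were at 4-fold or more, namely Kif27 (68.6-fold), Stk36 (14.2-fold), a partner of Kif27, and Rfx2 (13.3-fold). Rfx3 had 338 UMIs, a level of 5.10 to 20.4 over the mice with a median of 11.4, and it was above every other type in 11 of 11 mice, with 4.22 in astrocytes. Rfx4 was shared with astrocytes, at 2.90 and 3.56. Foxj1, the factor most often used to mark ependymal cells, had only 5 UMIs, found in 3 of the 11 mice. Thinned to 1000 UMIs it was seen in 1.55% of ependymal nuclei and 1.83% of Schwann and meningeal nuclei, so at this depth it could not be told from background. Mcidas, Gmnc and Ccno, which act while multiciliated cells form, were at 0.

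Stem and progenitor genes were measured for the same nuclei. Of 30 genes, 6 passed the filter, 0 were at 4-fold or more, and the median ratio was 1.07. The RNA-binding protein gene Msi2 (22.9 per 10000) and the nuclear factor I gene Nfia (19.7) lay near their astrocyte levels of 18.6 and 20.0. Sox2, a stem cell transcription factor that adult ependymal cells are known to keep, had 31 UMIs in 21.5% of the nuclei, and its level was 1.23, against 1.06 in oligodendrocytes and 0.969 in astrocytes. Its level over the mice was 0 to 2.58 with a median of 0.704. Sox9 had 13 UMIs, Vim 18, Prom1 8 and Nes 1, and Gli1 was at 0. Proliferation genes were close to absent from the counts, with 25 UMIs over 13 genes, of which 17 fell on Ccnd2, and 9 genes including Mki67 and Top2a were at 0. Of 12 transcription factors and signals of the dorsal and ventral canal, Zeb1 passed the filter, at 0.285 of the level in OPCs, and Foxa2, Msx1, Nkx6-2 and Sp8 were at 0.

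Genes of polarity and of transport made up the remaining lists. Crb2, which builds apical membrane, had a level of 1.23 and a ratio of 33.9, and it was the only member of 8 past the filter in the polarity and adhesion list at 4-fold or more. Celsr1, a planar polarity cadherin that orients cilia, was found in 16.1% of the nuclei with 18 UMIs and a ratio of 53.7, below the filter. Of 14 genes of water, ion and metabolite transport, 11 had a lower level than in astrocytes, and 7 of the 8 past the filter did, against 637 of the 2248 genes (28.3%). The bicarbonate transporter gene Slc4a4 was at 8.05 against 45.2, the glutamate transporter gene Slc1a2 at 7.06 against 56.4, and the water channel gene Aqp4 at 1.31 against 9.11. Lrp2, an endocytic receptor of ciliated epithelia, had 22 UMIs and a ratio of 45.9 but was in 19.4% of the nuclei, just below the filter.

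The 25 genes of highest ratio included several that are not in the lists. Gm45783 had the highest, 331-fold, with a level of 3.40 to 25.0 over the 11 mice. It lies on the minus strand at chr7:7334149-7374573 in GENCODE vM21 and overlaps Vmn2r30 on the same strand, which was also among the 25 (149-fold), so the split of their counts is uncertain. 1700012P22Rik (329-fold), Fam216b (289-fold), Ttc21a (281-fold), 1700028P14Rik (262-fold), Tmem212 (261-fold) and the lincRNA C230072F16Rik (222-fold, in 86.0% of the nuclei) followed among those with the highest ratios. Ttc21a lies opposite Cx3cr1, a microglia gene, with 9 ependymal UMIs. Of the axonemal lists, Dnah12, Wdr63, Dnah11, Daw1, Iqca and Drc7 were among the 25. The other genes were Frmpd2, Zfp474, Dthd1, Lrrc43, Gm10714, Ccdc180, Lrrc74b, Gm47888, Ttc29, Ccdc153 and Gm29266, with ratios from 148 to 226. By biotype the 236 specific genes were 221 protein coding, 7 lincRNA and 6 antisense genes, and 2 had no match.

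**Figure D4:**
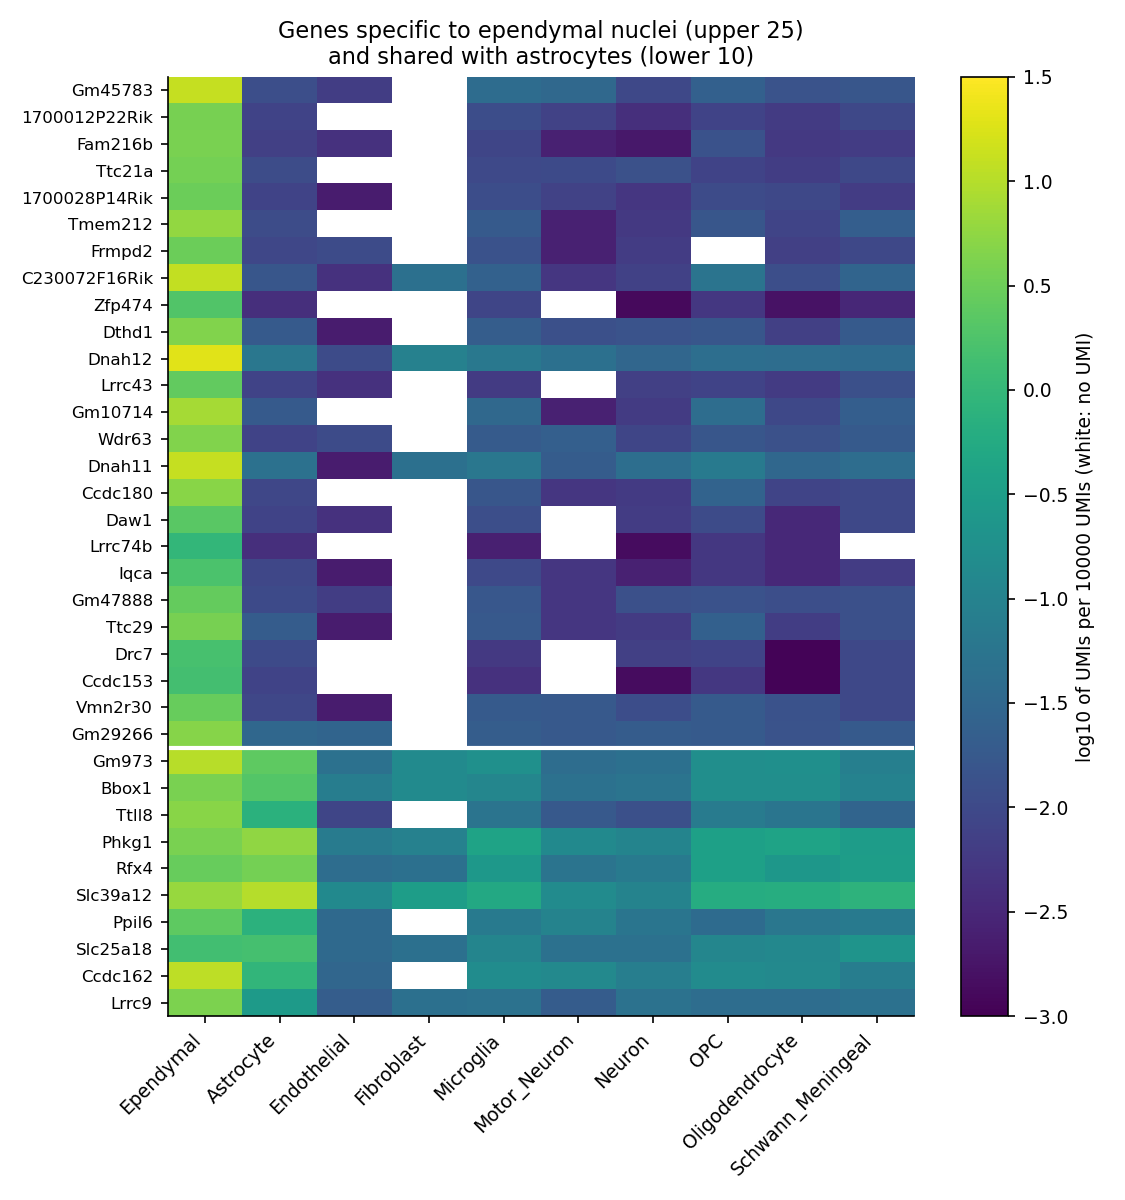
Level of 35 genes in the 10 cell types, as log10 of UMIs per 10000 UMIs, from dark blue (low) to yellow (high), with white for no UMI. The upper 25 genes are bright in the ependymal column, and the lower 10 are bright in the ependymal and astrocyte columns.

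Astrocytes were the cell type most like ependymal nuclei over the 2248 genes (Spearman rho of levels 0.420, against 0.202 to 0.380 in the other 8 types). The 10 genes that set these 2 types most apart from the other 8 were Gm973, Bbox1, Ttll8, Phkg1, Rfx4, Slc39a12, Ppil6, Slc25a18, Ccdc162 and Lrrc9. Gm973 was at 10.4 in ependymal nuclei, 2.43 in astrocytes and at most 0.180 elsewhere. Slc39a12, a zinc transporter gene, was at 6.27, 9.93 and at most 0.821. Bbox1, which encodes the last enzyme of carnitine synthesis, was at 3.89, 1.97 and at most 0.167.

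The genotypes were compared over mice. As a check of the labels, Sod1 over all nuclei of a mouse was 1.74 to 5.94 per 10000 in the 6 SOD1G93A mice and 0.312 to 1.06 in the 6 WT mice, with no overlap. In ependymal nuclei alone Sod1 was 0.413, 2.66, 3.05, 0.999 and 3.52 in the WT mice (female pools B and C, male pools A, B and C). In SOD1G93A mice it was 2.08, 0 and 5.99 in females and 8.51, 2.70 and 5.55 in males of pools A, B and C. The groups overlapped, and the log2 fold change was 1.01 ± 0.50 (SE, n = 11 mice, limma-voom p = 0.0459, FDR 0.503), and 0.48 without a filter on low counts. Human transgene reads reach this row only where they align to the mouse gene, which was not tested.

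Ependymal nuclei made up 0.583% ± 0.335 of the nuclei of WT mice and 0.716% ± 0.452 of those of SOD1G93A mice (SD, n = 6 mice each). WT shares were 0%, 0.515% and 0.566% in females and 0.594%, 0.930% and 0.893% in males of pools A, B and C. SOD1G93A shares were 0.912%, 0.117% and 1.26% in females and 0.211%, 0.852% and 0.945% in males. The ranges overlapped throughout, and the difference was smaller than the spread between mice (log2 fold change 0.30, edgeR quasi-likelihood FDR 0.722 over the 10 cell types). Within pools A, B and C the pooled shares were 0.407%, 0.574% and 1.07% in SOD1G93A and 0.368%, 0.761% and 0.693% in WT nuclei. Fewer nuclei of a type and a lower recovery of its nuclei cannot be told apart here.

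For gene expression 471 genes had enough UMIs for the fit (limma-voom with terms for group and pool, 11 mice, 5 residual degrees of freedom). No gene passed FDR < 0.1, that is 0.0% of the genes tested. At an unadjusted p below 0.05 there were 44 genes, 9.34% of those tested, 31 with higher and 13 with lower estimates in SOD1G93A. edgeR and DESeq2 also called 0 genes, with 25 and 15 at unadjusted p below 0.05. The typical standard error was 0.43 on the log2 scale (median over the 471 genes), so that small differences were not detectable at this depth. The levels of 3 of the 471 genes did not overlap between the genotypes, Pja2 (higher in SOD1G93A) and Ehbp1 and Tmem108 (lower). Among 471 genes a few can separate by chance, so these 3 are not called different.

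Axonemal genes had small estimates in all 11 mice, and their summed share depended on the mice with few nuclei. Of the 95, 29 entered the fit, 12 with a higher and 17 with a lower estimate, and their median log2 fold change was −0.02, against 0.00 over all genes tested. Under the alternatives this median lay between −0.36 and −0.02. At an unadjusted p below 0.05 there was 1 of the 29, Cfap61, against 9.34% of all genes tested. Its level was 6.33 to 13.3 in WT mice with a median of 9.38 and 0 to 8.29 in SOD1G93A mice with a median of 4.05, and the log2 fold change was −0.90 ± 0.43 (SE, FDR 0.503). Dnah12 differed by 0.16 ± 0.26 (95% interval −0.36 to 0.68), Cfap44 by 0.06 ± 0.28 (−0.50 to 0.61) and Enkur by −0.01 ± 0.43 (−0.86 to 0.85). The groups overlapped for all 3 markers. Within pools A, B and C the median log2 ratio of the 29 genes was −0.08, −0.08 and −0.25, with 13, 11 and 7 of them higher in SOD1G93A. The share of UMIs on all 95 axonemal genes was 3.26%, 3.14%, 3.38%, 3.63% and 2.90% in the WT mice (female pools B and C, male pools A, B and C). In SOD1G93A mice it was 2.65%, 5.96% and 2.82% in females and 3.32%, 2.39% and 2.46% in males of pools A, B and C. The means were 3.26% ± 0.27 and 3.27% ± 1.36 (SD, n = 5 and 6 mice). Without the 2 mice with under 5 nuclei, the 4 SOD1G93A mice were all below the 5 WT mice, with a mean of 2.58% ± 0.20. This is a description with no test, and in these mice median UMIs per nucleus were also lower, at 1263 to 2533 in SOD1G93A and 1787 to 3052 in WT mice, whose part in it was not tested. Of the specific genes 87 were tested, with a median of −0.07, and 5 of them had an unadjusted p below 0.05 (Gm10714, Gm45783, Gm13481, Cfap61 and Adgb), 1 higher and 4 lower, against 44 of the 471 (9.34%), 31 higher and 13 lower. Rfx3 was at 0.00 ± 0.32 and the stem cell genes Msi2, Nfib and Nfia at 0.22 ± 0.24, −0.02 ± 0.33 and −0.30 ± 0.27.

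The higher genes of smallest p were Ntrk2, Syt1, Pcdh7, Cmss1 and Esrrg. Ntrk2, the receptor for brain-derived neurotrophic factor, was at 2.89, 1.77, 3.28, 3.00 and 6.33 in the WT mice (female pools B and C, male pools A, B and C). In SOD1G93A mice it was at 9.38, 3.11 and 8.29 in females and at 10.2, 5.94 and 4.94 in males of pools A, B and C. The groups overlapped, with the WT male of pool C above 3 of the 6 SOD1G93A mice and the other WT mice at or below 3.28. The log2 fold change was 1.38 ± 0.39 (SE, n = 11 mice, p = 7.0e-04, FDR 0.32), and the log2 ratio was 1.56, 0.81 and 0.96 within pools A, B and C. Syt1, the calcium sensor of synaptic vesicle release, was at 0 to 2.81 in WT and 1.70 to 9.26 in SOD1G93A mice (2.02 ± 0.64, FDR 0.32). The estimates were 1.20 ± 0.38 for the protocadherin gene Pcdh7, 1.19 ± 0.38 for Cmss1 and 0.99 ± 0.33 for the nuclear receptor gene Esrrg, all at FDR 0.32. With each mouse left out these estimates were 0.80 to 1.53 for Ntrk2, 0.94 to 3.06 for Syt1 and 0.69 to 1.37 for Cmss1. The lowest of each came without the WT female of pool C, and the highest of Syt1 without the WT female of pool B. Without a filter on low counts the estimates were 0.76 for Ntrk2, 0.68 for Pcdh7, 0.69 for Cmss1 and 0.57 for Esrrg.

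The lower genes of smallest p were Gabrb1, Dlg1, Pde1a, Gm10714 and 2210408I21Rik. Gabrb1, a GABA-A receptor subunit, was at 17.4, 16.0, 3.05, 16.4 and 15.5 in the WT mice in the same order. In SOD1G93A mice it was at 8.34, 3.11 and 1.84 in females and at 8.51, 9.72 and 5.55 in males of pools A, B and C. Each WT mouse except the male of pool A was above all SOD1G93A mice (−1.20 ± 0.41, FDR 0.32). Within pools the log2 ratio was −1.05 in B and −2.20 in C but 1.46 in A, the pool of that male. Dlg1, a scaffold of cell junctions, was at 4.13 to 8.44 in WT and 0 to 5.40 in SOD1G93A mice (−1.24 ± 0.50, FDR 0.483). Pde1a, a cyclic nucleotide phosphodiesterase (−1.19 ± 0.49), was higher in SOD1G93A in pool A, with a log2 ratio of 0.55. The antisense gene Gm10714 and 2210408I21Rik had estimates of −0.98 ± 0.41 and −0.94 ± 0.42. Without the SOD1G93A female of pool C the estimate was −0.75 for Gabrb1 and −0.40 for Pde1a. Pde1a was also at −0.67 without the WT female of pool C and at −1.80 without the WT male of pool A, and 2210408I21Rik at −0.61 without the SOD1G93A male of pool B. Without the pool term Pde1a was at −0.76, and without a filter on low counts Gm10714 was at −1.52 and 2210408I21Rik at −1.49.

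**Figure D5:**
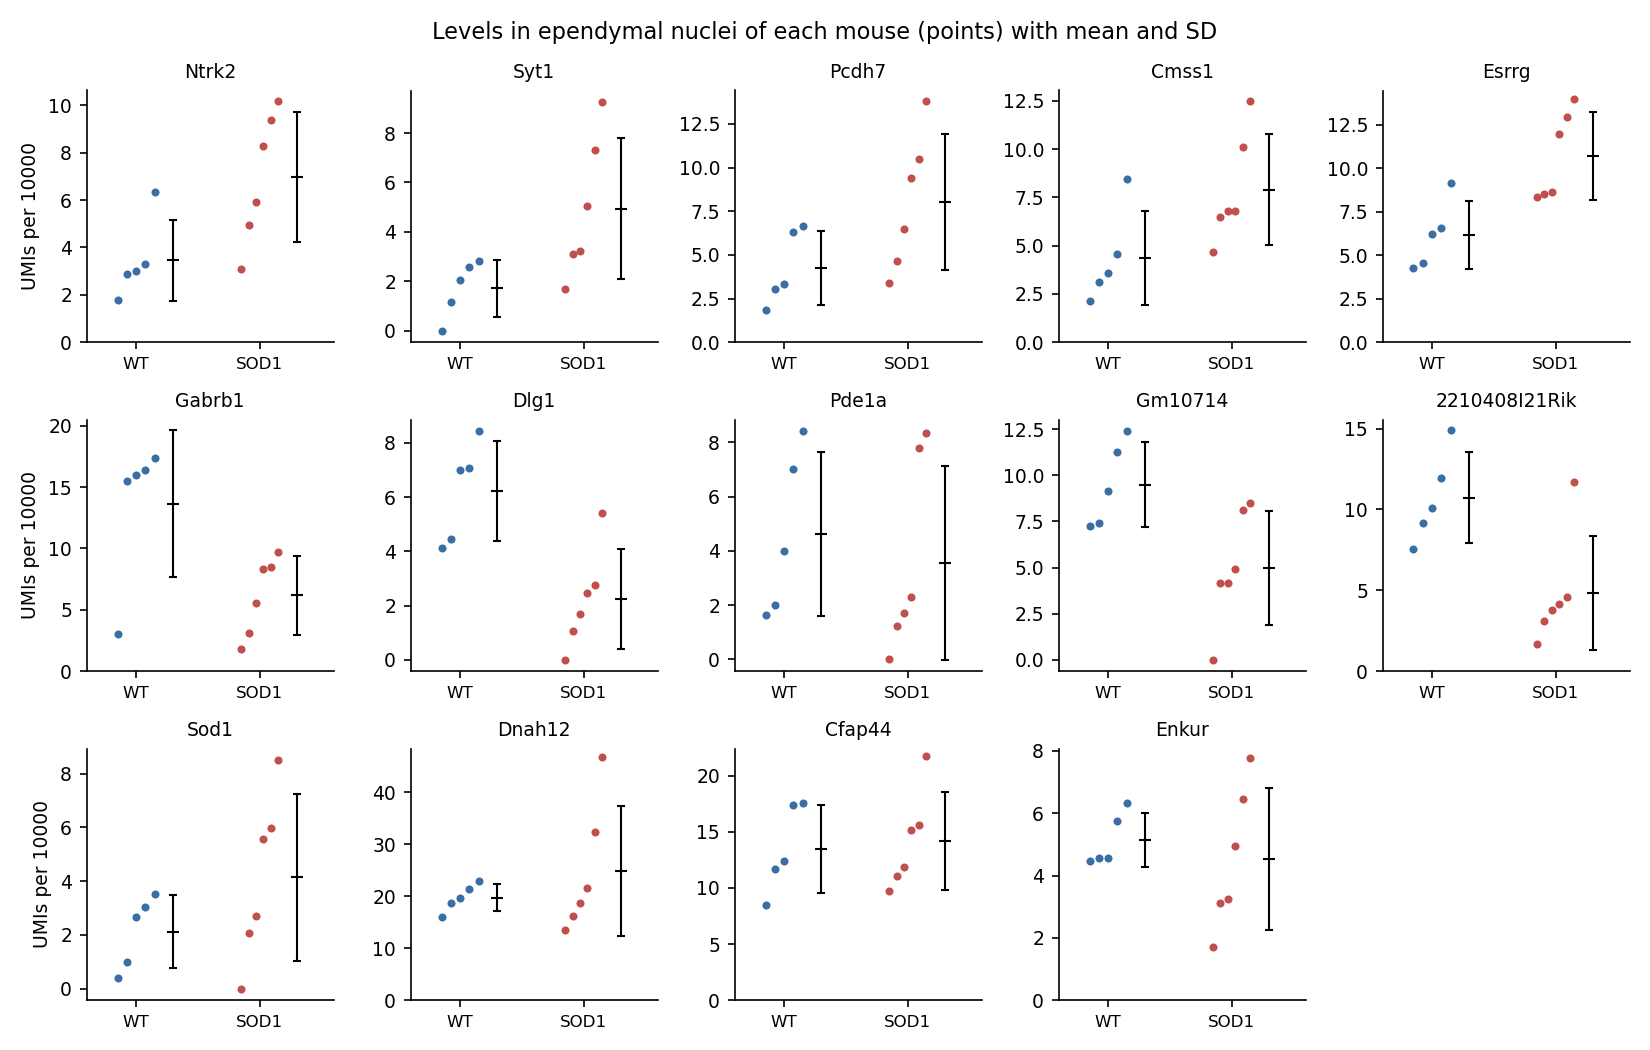
Level (UMIs per 10000 UMIs) in the ependymal nuclei of each mouse for 14 genes, with WT in blue (5 mice) and SOD1G93A in red (6 mice). Bars show mean ± SD beside the points; the genotypes overlap in all 14 panels.

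The count of differences rested on the 2 mice with under 5 nuclei. Without them 24 of 525 genes passed FDR < 0.1, 21 higher and 3 lower in SOD1G93A, and none was axonemal. Without the SOD1G93A male of pool A alone 11 passed, without the SOD1G93A female of pool B alone 0 did, and without the WT female of pool B 1 did, Syt1. The 24 genes included Atp1b1, a sodium pump subunit (1.61 ± 0.32, FDR 2.97e-04), the synaptic gene Snap25 (1.42 ± 0.34, FDR 0.00313), Cmss1 (1.38 ± 0.33, FDR 0.00313), Pcdh7 (1.33 ± 0.33, FDR 0.00403) and Gabrb1 (−1.43 ± 0.37, FDR 0.00881). The 9 mice of this fit were 5 WT and 4 SOD1G93A mice. It had fewer residual degrees of freedom than the 5 of the main fit. Its small FDRs therefore lean on variances that limma shares over genes. edgeR and DESeq2 were not run on these 9 mice.

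Transcripts more abundant in other cell types were among those with higher estimates in SOD1G93A mice. Each of the 21 higher genes had a higher level in some other cell type than in ependymal nuclei, and 12 of the 21 had a higher level in neurons, against 319 of the 525 genes of that fit with a higher level in some other type (60.8%) and 161 with a higher level in neurons (30.7%). In all 11 mice, 18 of the 31 genes with higher estimates at p below 0.05 (58.1%) and 1 of the 13 lower genes had a higher level in neurons, against 137 of the 471 tested (29.1%). Syt1 was at 2.94 in ependymal nuclei, 18.4 in neurons and 8.78 in Schwann and meningeal nuclei. Neurons were not the highest type for every such gene. Atp1b1 was at 5.87 in ependymal nuclei, 2.41 in neurons and 29.9 in Schwann and meningeal nuclei. No such count was made for Schwann and meningeal nuclei. The ependymal levels in these counts were pooled over genotypes, and WT nuclei gave 173717 of the 252050 UMIs. The pooled level of a gene higher in SOD1G93A is thereby pulled toward WT, which favours such counts for higher genes. At the mean of the SOD1G93A mice with 5 or more nuclei, Ntrk2 was at 7.14 against 4.66 in neurons, and Snap25, Peg3 and App were also above neurons. The rest of the 12 stayed below neurons. In Schwann and meningeal nuclei Snap25 was at 34.7 and App at 16.4, above those SOD1G93A means of 9.44 and 7.83. Peg3 was at 5.65 there, below its mean of 7.29. Mbp was at 0.443 to 4.28 over the WT mice with a median of 3.99 and at 1.55 to 7.29 over the SOD1G93A mice with a median of 4.98 (0.83 ± 0.50, limma-voom FDR 0.689). The summed level of the 3 neuron markers was 0 to 1.64 with a median of 0.413 in WT and 0 to 5.21 with a median of 1.32 in SOD1G93A mice. Median UMIs per nucleus were 1787 to 3052 in WT and 1263 to 6431 in SOD1G93A mice, with medians of 2440 and 1787. The part of these transcripts and of depth in the differences was not tested.

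Of the genes that the study names for glia, Fth1 and Sod1 could be tested. Their log2 fold changes were 0.68 ± 0.31 and 1.01 ± 0.50, both at FDR 0.503, so that neither passed. Xpo1, kept in the same list but not named in the text of the study, was at 1.20 ± 0.48 (FDR 0.483). The study worked on the same mice, and these genes are not independent evidence of a direction.

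Between the sexes 1 of 471 genes passed FDR < 0.1 (0.212%). This was Xist, the RNA of X inactivation, at 6.20 to 14.0 in the 5 female mice and 0 to 2.11 in the 6 male mice (3.28 ± 0.58, limma-voom FDR 1.74e-04), with no overlap. UMIs of Xist occurred in 5 of the 6 male mice. Gm45783 was at 10.9 to 25.0 in females and 3.40 to 18.1 in males (1.10 ± 0.31, FDR 0.182) and Auts2 at 8.27 to 28.1 and 3.24 to 7.13 (1.10 ± 0.33, FDR 0.229). For the difference of the genotype effects between the sexes 0 of 471 genes passed (0.0%), with 16 at an unadjusted p below 0.05. The gene of smallest p was Nebl (1.93 ± 0.70, FDR 0.976).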

How the data were processed

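Counts were deposited by the authors as UMIs per gene and nucleus, without normalization. Per the submitters' processing notes and the methods of the study, reads were aligned with STAR 2.5.1b to a pre-mRNA version of mm10, so intronic reads counted, through Cell Ranger 3.1 (after bcl2fastq 2.20.0.422), and nuclei were assigned to mice by hashtag in Seurat 4.0.3 under R 4.0.3. Nuclei below 200 genes or above 10% mitochondrial UMIs, and droplets with several or no hashtags, were discarded by the authors. The mitochondrial percent of each nucleus is a column deposited by the authors, and mitochondrial genes are absent from the counts. Cell types are the deposited labels, made from clusters of integrated data with marker genes and reference profiles. Doublets within 1 mouse were not removed, and no doublet caller was run. The deposited normalized values were not used.

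UMIs were summed per cell type and mouse, and the mouse was the replicate. Genotype and sex were tested with filterByExpr (minimum count 10), TMMwsp factors and robust limma-voom, with 4 groups of sex and genotype and a pool term, at FDR < 0.1 (R 4.3.3, limma 3.58.1, edgeR 4.0.16). The edgeR quasi-likelihood test and DESeq2 1.42.0 served as alternatives, and nuclei per type were tested with edgeR. Paired medians of ependymal and astrocyte nuclei were compared by exact sign flips in Python 3.11.15. The pools are the 10x batches of the labels, and the median correlation of the deviations of mice from their group mean was 0.0514 within a pool (15 pairs) and −0.0131 between pools (30 pairs). The tests were tried on simulated data first. Gene spans come from GENCODE vM21 and promoters from RefSeq (GRCm38.p6), matched by symbol or synonym for 78 of 95 axonemal and 36 of 41 transport genes. Of the 236 specific genes 185 matched, under the 80% set for such a count. All gene lists and members were chosen with earlier results of these data known. Named genes are the 25 of highest ratio, the 10 most shared with astrocytes, the 4 with most UMIs in each list together with defining members, the 5 higher and 5 lower genes of smallest p for genotype, Sod1, and 3 genes for sex; any other gene was picked with its values in view. Some marker genes of other cell types are not reported here.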

Additional observations from a re-analysis of the deposited data

Results flagged for a closer look

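Values of single mice were set against the rest of their genotype for 40 groups of values, and 5 stood apart by Dixon's ratio, where chance gives about 1 in 20. Gabrb1 was at 3.05 UMIs per 10000 in the WT male of pool A, far below the other WT mice. The SOD1G93A female of pool B, with a single nucleus, stood apart in median UMIs per nucleus (6431) and in the axonemal share (5.96%). 2210408I21Rik was at 11.7 in the SOD1G93A male of pool C, above the other SOD1G93A mice. Auts2 was at 28.1 in the SOD1G93A female of pool A.

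Of 16 genes, Enkur had effects of opposite sign in the sexes in every pool with a pair, with a mean difference of −1.82 UMIs per 10000 (SOD1G93A minus WT) over 3 pools in males and of 1.96 over 2 pools in females. The female value rests on pool B, where the SOD1G93A female has 1 nucleus with 5 UMIs of Enkur (difference 3.23), and in pool C the difference was 0.69. This pattern of signs was not itself tested, and the fitted difference of the log2 effects was −0.65 ± 0.87 (SE, limma-voom FDR 0.976).

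Axonemal transcripts at an ependymal level appeared in 4 nuclei labelled as other types, namely 2 neurons, 1 astrocyte and 1 oligodendrocyte, with shares of 1.49% to 1.83%. The neuron with 1.49% came from the WT female of pool A, the mouse without ependymal nuclei.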

How the results depend on the processing

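The number of genes 4-fold or more above every other type was 236, and 169 to 302 under the alternatives for level, filter, types and nuclei, but 366 at 2-fold. For genotype, the count of genes past FDR < 0.1 was 0 with edgeR, DESeq2, TMM factors, a minimum count of 5, no filter, no robust option, the deepest nuclei left out and, an alternative chosen after seeing the data, sample quality weights. It was 24 without the mice that had under 5 nuclei, and 0 to 11 with each mouse left out. The sex count was 1, became 2 with a minimum count of 5, 2 without a filter (Uty was added) and 5 without the mice with under 5 nuclei, and was 0 to 3 with each mouse left out. It was 0 without the SOD1G93A female of pool A, 2 without the WT male of pool B and 3 without the SOD1G93A female of pool B. The count for the difference of the genotype effects was 1 without the mice with under 5 nuclei. Estimates near 0 changed sign, with Cfap44 at −0.078 (minimum count 5) and −0.36 (no filter), Dnah12 at −0.25 (no filter) and −0.14 (without mice with under 5 nuclei), and ranges with each mouse left out of −0.079 to 0.25 for Cfap44, −0.11 to 0.40 for Dnah12 and −0.16 to 0.10 for Enkur. The log2 fold change of the share of ependymal nuclei, SOD1G93A against WT, went from 0.30 to −0.037 without the SOD1G93A female of pool A and was at most 0.72. The axonemal median was −0.36 to −0.02, and −0.20 to 0.08 with each mouse left out. The axonemal share of UMIs, SOD1G93A minus WT, went from 0.0054 to −0.68 percentage points without the mice with under 5 nuclei, and was −0.53 (without the SOD1G93A female of pool B) to 0.18 with each mouse left out, alternatives chosen after seeing the data. The cause of these changes was not tested. Without the replicate block, that is without the pool term, genotype had 0 genes (35 at unadjusted p below 0.05), sex 1 and the difference 0. The axonemal median was then −0.23 and the log2 fold change of the share of ependymal nuclei 0.30, and no other call changed. Depth and the paired mitochondrial difference kept their direction and their side of 0.05 under every alternative run. With 252050 UMIs in all and 5877 to 70101 per mouse, genes of low level could not be compared between genotypes.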

Other observations

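Of the 236 specific genes, 169 were in none of the lists, and the ones described here were picked with their values in view. 1700007G11Rik had 782 UMIs, with a level of 13.6 to 79.3 over the mice, a median of 31.7 and a ratio of 132. Adamts20, a secreted metalloproteinase gene, was at 15.1 to 48.2 with a median of 24.1 and a ratio of 15.5, and it was detected in 93.5% of the nuclei. The transcription factor gene Glis3 had a ratio of 4.86, the imprinted gene Nnat 8.36 and the scaffold gene Shank2 10.0.

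Single specific genes outside the lists were also picked with their values in view and stand for no group, and of the 8 genes of the water, ion and metabolite transport list past the filter 0 were at 4-fold or more. Cftr, the chloride channel mutated in cystic fibrosis, had 36 UMIs in 20.4% of the nuclei, a level of 1.43 and a ratio of 22.4. The anion exchanger gene Slc26a3 had 37 UMIs and a ratio of 145, and Sctr, the secretin receptor, had 47 UMIs and a ratio of 26.4. Each of the 3 genes was at 0 in at least 1 mouse. Ezr, an apical membrane linker, had 24 UMIs and a ratio of 4.09.

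The cluster that held 90 of the 93 ependymal nuclei contained 6 nuclei deposited under other types (3 neurons, 1 microglia, 1 oligodendrocyte and 1 astrocyte). Their axonemal share was 0.293% to 1.22%, below the median of the ependymal nuclei, and their depth was 3207 to 35201 UMIs.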
